A study of Mus musculus with 6 samples.

Results

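Immediate early genes were followed in the hearts of tumour-bearing mice treated with doxorubicin (Dox), ginsenoside Rh2 or both. The group was chosen by gene symbol and holds 10 of the 45777 genes in the table, namely Fos, Fosb, Jun, Junb, Atf3, Egr1, Egr2, Egr3, Nr4a1 and Ier2. All 10 averaged 10 counts or more per library and were tested, as were 18328 genes in all. Each of the 10 had a lower fitted level in the libraries with Dox than without, as had 9676 of the 18328 tested genes. The differences of the 10 were 0.08 to 1.75 on the log2 scale, but none of them passed the adjusted test. The largest were in the EGR family and the smallest in Ier2 and Jun, but without the libraries with Rh2 at 30 mg/kg Nr4a1 had the largest, at -1.20, and Jun the smallest, at -0.15.

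Immediate early genes are switched on soon after a stimulus reaches a cell, without the need for new protein, because the factors that drive them (serum response factor with its ternary complex partners, and CREB) are already bound or ready in the nucleus and are activated by kinases. Most of the group encode transcription factors that in turn drive later genes, and their RNAs are short-lived. In the heart they are known to respond to stretch, adrenergic signals and loss of blood flow, and in any tissue to how it was handled after death.

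Each of the 6 conditions was represented by 1 library made from the hearts of 5 mice, pooled before RNA extraction, so no condition had a replicate library. All mice were BALB/c nude (CAnN.Cg-Foxn1nu/Crl), which lack a thymus and mature T cells, were labelled as 6 weeks old, and carried a subcutaneous tumour of MDA-MB-231 cells, a human breast cancer line. The groups were Control (tumour, neither agent), Rh2-20 mg/kg and Rh2-30 mg/kg (Rh2 injected daily), Dox (2 mg/kg every other day to a cumulative 22 mg/kg), and the combinations Rh2-20 mg/kg + Dox and, at the higher dose, Rh2-30 mg/kg + Dox, in which both agents were given over the same 3 weeks. Ginsenoside Rh2 is a ginseng saponin and doxorubicin is an anthracycline whose dose is limited by its toxicity to the heart. Hearts were frozen on dry ice, and the time between death and freezing was not given in the sources used here. Because these are bulk hearts, fewer cells of a type and less RNA per cell cannot be told apart.

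Depth was even, with 86164411 to 90621002 counts per library. The hearts carried their defining transcripts: all 10 cardiomyocyte markers were found in all 6 libraries, and their summed level ran from 90118 CPM (counts scaled to library size with TMM factors), found with Rh2 alone at 30 mg/kg, to 121767 CPM when Dox was added at that dose. The Rh2-30 mg/kg library also held brown fat RNA, with the thermogenic gene Ucp1 at 67.9 CPM there and at most 0.138 CPM elsewhere, and Adipoq, a fat cell hormone, at 39.2 CPM against 0.0921 CPM with Dox at that dose. The 6 lung markers summed to 8.74 CPM there and to at most 1.64 CPM in the other libraries, most of it Scgb1a1, a secreted airway protein, at 7.70 CPM, while the surfactant gene Sftpc was at 0 in all 6. The Dox fit of the 10 genes is therefore also given without the libraries with Rh2 at 30 mg/kg, and the pathway and marker lists are given with them only.

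The promoters of 4 of the genes are shown with the matches of a search for short elements that act on genes of this kind. RefSeq (GRCm38.p6) gave promoter windows for 7 of the 10 genes, and the 250 bases before each start were searched on both strands for the CRE core TGACG (bound by CREB and its relatives), the full CRE TGACGTCA, the AP-1 site TGACTCA, the TATA box TATAAA and the CArG box (bound by serum response factor). Matches are in capitals, and a CRE core on the other strand reads CGTCA. A full CRE holds 2 overlapping CRE cores.
Fos: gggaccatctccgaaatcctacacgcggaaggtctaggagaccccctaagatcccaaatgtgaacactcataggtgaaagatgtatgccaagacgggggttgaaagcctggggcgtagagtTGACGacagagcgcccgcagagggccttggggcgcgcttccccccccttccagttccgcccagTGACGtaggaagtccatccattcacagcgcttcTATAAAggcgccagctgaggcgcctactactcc
Egr2: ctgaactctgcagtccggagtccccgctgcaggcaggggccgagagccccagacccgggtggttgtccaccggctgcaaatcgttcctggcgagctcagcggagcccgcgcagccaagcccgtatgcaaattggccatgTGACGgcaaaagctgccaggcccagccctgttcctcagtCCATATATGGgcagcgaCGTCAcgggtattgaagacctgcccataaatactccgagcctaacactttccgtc
Nr4a1: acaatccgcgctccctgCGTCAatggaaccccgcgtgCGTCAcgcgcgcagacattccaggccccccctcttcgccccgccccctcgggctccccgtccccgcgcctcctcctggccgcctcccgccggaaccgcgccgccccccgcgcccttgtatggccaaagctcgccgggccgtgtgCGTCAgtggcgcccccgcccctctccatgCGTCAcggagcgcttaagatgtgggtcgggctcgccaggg
Jun: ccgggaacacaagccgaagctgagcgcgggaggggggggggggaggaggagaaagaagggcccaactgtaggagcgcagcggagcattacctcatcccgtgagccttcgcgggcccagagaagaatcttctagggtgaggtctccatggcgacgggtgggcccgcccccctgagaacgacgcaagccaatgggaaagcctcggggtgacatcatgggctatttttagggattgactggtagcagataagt
The Fos window is chr12:85473640-85473889 on the plus strand and holds 2 CRE cores and a TATA box. The Egr2 window is chr10:67537619-67537868 on the plus strand, inside the annotated gene, and holds a CArG box between 2 CRE cores. The Nr4a1 window is chr15:101266596-101266845 on the plus strand, also inside the gene, and holds 4 CRE cores. The Jun window, chr4:95052223-95052472 on the minus strand, held no match. Variant forms of these elements and elements of other kinds were not searched.

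The 7 genes had 11 windows, of which 5 were overlapping or nearby windows of Egr2. The CRE core was found in 8 of the 11 windows, in 6 of the 7 genes (all but Jun), against 17.8% of all 32851 promoter windows. The CArG box was found in Egr2 alone, in 4 of its 5 windows, against 1.47% of all windows. The TATA box was found in Fos alone, against 12.4%, and the full CRE and the AP-1 site were found in none of the 7, against 1.55% and 4.46%. These are matches of letters, not measured sites.

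Levels between genes were compared as FPKM, which corrects for transcript length. It does not correct for how well the SureSelect kit captured each gene. Nr4a1, an orphan nuclear receptor, was the most abundant of the 10 with a mean of 14.5 FPKM over the 6 libraries, followed by Jun with 10.2. Egr1, Junb, Ier2 and Fos lay close together with means of 4.53, 4.37, 3.87 and 3.43 FPKM, and their ranges over the libraries overlapped. Atf3 (1.06), Egr3 (0.40), Egr2 (0.30) and Fosb (0.13 FPKM) were the scarcest. The 10 together made 58.8 FPKM in Control and nearly the same, 59.6, in Rh2-30 mg/kg, but 38.9 in Rh2-20 mg/kg, 31.3 with Dox alone, and 32.5 and 36.1 FPKM with Dox plus Rh2 at 20 and 30 mg/kg. Control and Rh2-30 mg/kg thus stood together above the other 4 libraries. Nr4a1 made 37.8% of the sum in Control and 21.4% in Dox, while Jun made 19.7% in Control and 32.4% in Dox.

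**Figure D1:**
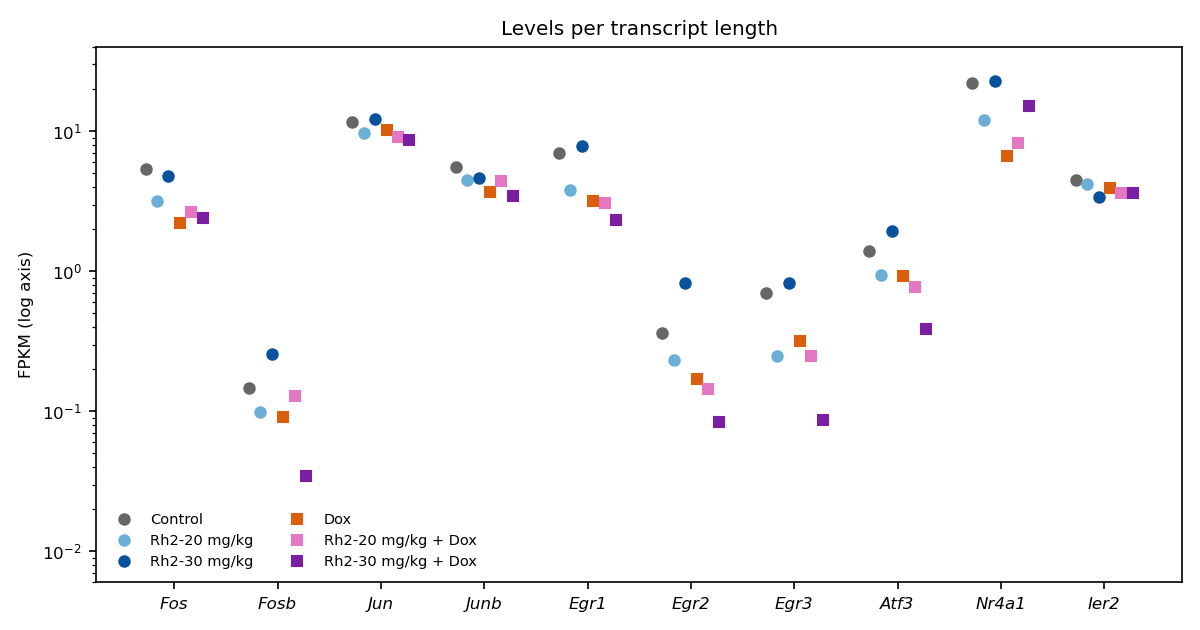
FPKM (log axis) of each of the 10 immediate early genes, 1 point per library, with circles for libraries without Dox and squares for libraries with Dox. Nr4a1 and Jun sit highest, at means of 14.5 and 10.2 FPKM, and Fosb lowest, and the widest vertical spread is in Fosb, Egr2 and Egr3.

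The main comparison set the 3 libraries with Dox (Dox alone and with Rh2 at 20 or 30 mg/kg) against the 3 without, which asks for a Dox difference across Rh2 doses. Of the 10 genes, 0 passed edgeR's quasi-likelihood test at an adjusted p under 0.05, where 0.0109% of all tested genes were called lower and 0.0164% higher. At an unadjusted p under 0.05, 5 were lower (Fos, Egr1, Egr2, Egr3 and Atf3), against 5.91% of tested genes called lower at that level, and none was higher, against 4.2%. The median log2 fold change of the 10 was -0.91 and that of all tested genes was -0.01. DESeq2's Wald test called 3 of them lower (Fos, Egr1 and Egr2), with 279 genes called lower and 146 higher, or 2.32% in all. In 4 genes (Fos, Junb, Egr1 and Egr2) all 3 Dox libraries lay below all 3 others, as in 9.16% of tested genes, and in none were they all above, as in 7.85%.

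The Fos and Jun families form AP-1, a dimer of a Fos protein with a Jun protein, or of Jun proteins, that binds the AP-1 site. Fos (chr12:85473890-85477274, plus strand, 4 exons) was at 15.3 CPM in Control and 8.54 and 12.3 with Rh2 alone at 20 and 30 mg/kg, against 6.19 with Dox alone and 7.17 and 6.90 with Dox plus Rh2 at 20 and 30 mg/kg. Control and Rh2-30 mg/kg were highest, the 3 Dox libraries were nearly level, and the sets did not overlap. In the fit, Fos differed by a log2 fold change of -0.84 ± 0.21 (SE, 3 libraries against 3, edgeR adjusted p = 0.314).

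Fosb (chr7:19302696-19310118, minus strand, 4 exons), a second member of the Fos family, was the scarcest. It had 62 counts in Control and 44 and 112 with Rh2 alone at 20 and 30 mg/kg. There were 38 counts with Dox alone, and 56 and 15 with Dox plus Rh2 at 20 and 30 mg/kg. The libraries with Rh2 at 30 mg/kg held both its highest and its lowest count, and the sets overlapped. Its fitted log2 fold change with Dox was -0.96 ± 0.53 (edgeR adjusted p = 0.592), and -0.20 with both of those libraries left out.

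Jun (chr4:95049036-95052222, minus strand, 1 exon) was at 49.7 CPM in Control, 39.5 and 47.6 with Rh2 alone at 20 and 30 mg/kg, 42.9 with Dox alone, and 37.4 and 37.6 with Dox plus Rh2 at 20 and 30 mg/kg. It spanned only 1.33-fold from the lowest to the highest library, and the sets overlapped. In the fit the log2 fold change was -0.22 ± 0.11 (edgeR adjusted p = 0.575). The antisense gene Junos overlaps Jun and had 0 to 18 counts per library. Whether strand was used in counting was not given in the sources used here.

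Junb (chr8:84976909-84978748, minus strand, 1 exon), a Jun protein that can restrain Jun activity, was at 13.8 CPM in Control and 10.6 and 10.5 with Rh2 alone at 20 and 30 mg/kg, against 8.97 with Dox alone and 10.4 and 8.58 with Dox plus Rh2 at 20 and 30 mg/kg. The sets did not overlap, but only just, since Rh2-30 mg/kg and Rh2-20 mg/kg + Dox were nearly equal. Junb had a fitted log2 fold change of -0.32 ± 0.15 (edgeR adjusted p = 0.528).

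Atf3 (chr1:191170296-191183333, minus strand, 4 exons), a stress-induced bZIP factor that mostly represses, was at 3.73 CPM in Control, 2.39 and 4.67 with Rh2 alone at 20 and 30 mg/kg, 2.44 with Dox alone, and 1.96 and 1.05 with Dox plus Rh2 at 20 and 30 mg/kg. Dox and Rh2-20 mg/kg were nearly level, so the sets overlapped, and the ends of the range were again the libraries with Rh2 at 30 mg/kg. The fitted log2 fold change was -0.99 ± 0.37 (edgeR adjusted p = 0.440), and -0.47 without those 2 libraries.

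The EGR factors are zinc finger proteins that bind GC-rich sites and are themselves targets of serum response factor. Egr1 (chr18:34861207-34864956, plus strand, 2 exons) was at 29.0 CPM in Control and 15.0 and 29.3 with Rh2 alone at 20 and 30 mg/kg, against 13.0 with Dox alone and 12.0 and 9.67 with Dox plus Rh2 at 20 and 30 mg/kg. Control and Rh2-30 mg/kg were nearly equal and highest, and all 3 Dox libraries lay below the others. Egr1 had the lowest adjusted p of the 10, with a fitted log2 fold change of -1.08 ± 0.27 (edgeR adjusted p = 0.304).

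Egr2 (chr10:67534469-67542188, plus strand, 2 exons) had 121 counts in Control and 81 and 286 with Rh2 alone at 20 and 30 mg/kg, against 58 with Dox alone and 51 and 30 with Dox plus Rh2 at 20 and 30 mg/kg. The sets did not overlap, and Rh2-30 mg/kg stood well above Control. Its fitted log2 fold change was the largest of the 10, at -1.75 ± 0.50 (edgeR adjusted p = 0.344), and -0.91 without the libraries with Rh2 at 30 mg/kg.

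Egr3 (chr14:70077317-70082613, plus strand, 2 exons) had 318 counts in Control and 116 and 384 with Rh2 alone at 20 and 30 mg/kg, against 143 with Dox alone and 117 and 42 with Dox plus Rh2 at 20 and 30 mg/kg. Rh2-20 mg/kg was nearly as low as Rh2-20 mg/kg + Dox. The sets overlapped because Dox alone, at 1.70 CPM, lay above Rh2-20 mg/kg, at 1.29 CPM. Egr3 had a fitted log2 fold change of -1.40 ± 0.57 (edgeR adjusted p = 0.472), and -0.77 without the libraries with Rh2 at 30 mg/kg.

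Nr4a1 (chr15:101253902-101274795, plus strand, 7 exons), also called Nur77, was at 77.7 CPM in Control and 39.0 and 72.4 with Rh2 alone at 20 and 30 mg/kg, against 23.2 with Dox alone and 27.5 and 54.3 with Dox plus Rh2 at 20 and 30 mg/kg. Unlike the EGR genes it was not lowest in Rh2-30 mg/kg + Dox, which lay above Rh2-20 mg/kg, so the sets overlapped. Nr4a1 had a fitted log2 fold change of -0.85 ± 0.38 (edgeR adjusted p = 0.514), and -1.20 without the libraries with Rh2 at 30 mg/kg.

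Ier2 (chr8:84661331-84662852, minus strand, 1 exon), a nuclear protein whose gene is induced by serum, was at 9.21 CPM in Control, 8.26 and 6.26 with Rh2 alone at 20 and 30 mg/kg, 7.90 with Dox alone, and 7.07 and 7.47 with Dox plus Rh2 at 20 and 30 mg/kg. It was the 1 gene of the 10 that was lowest in Rh2-30 mg/kg, and the sets overlapped. The fitted log2 fold change was -0.08 ± 0.16 (edgeR adjusted p = 0.904), and without Control it turned to 0.04.

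**Figure D2:**
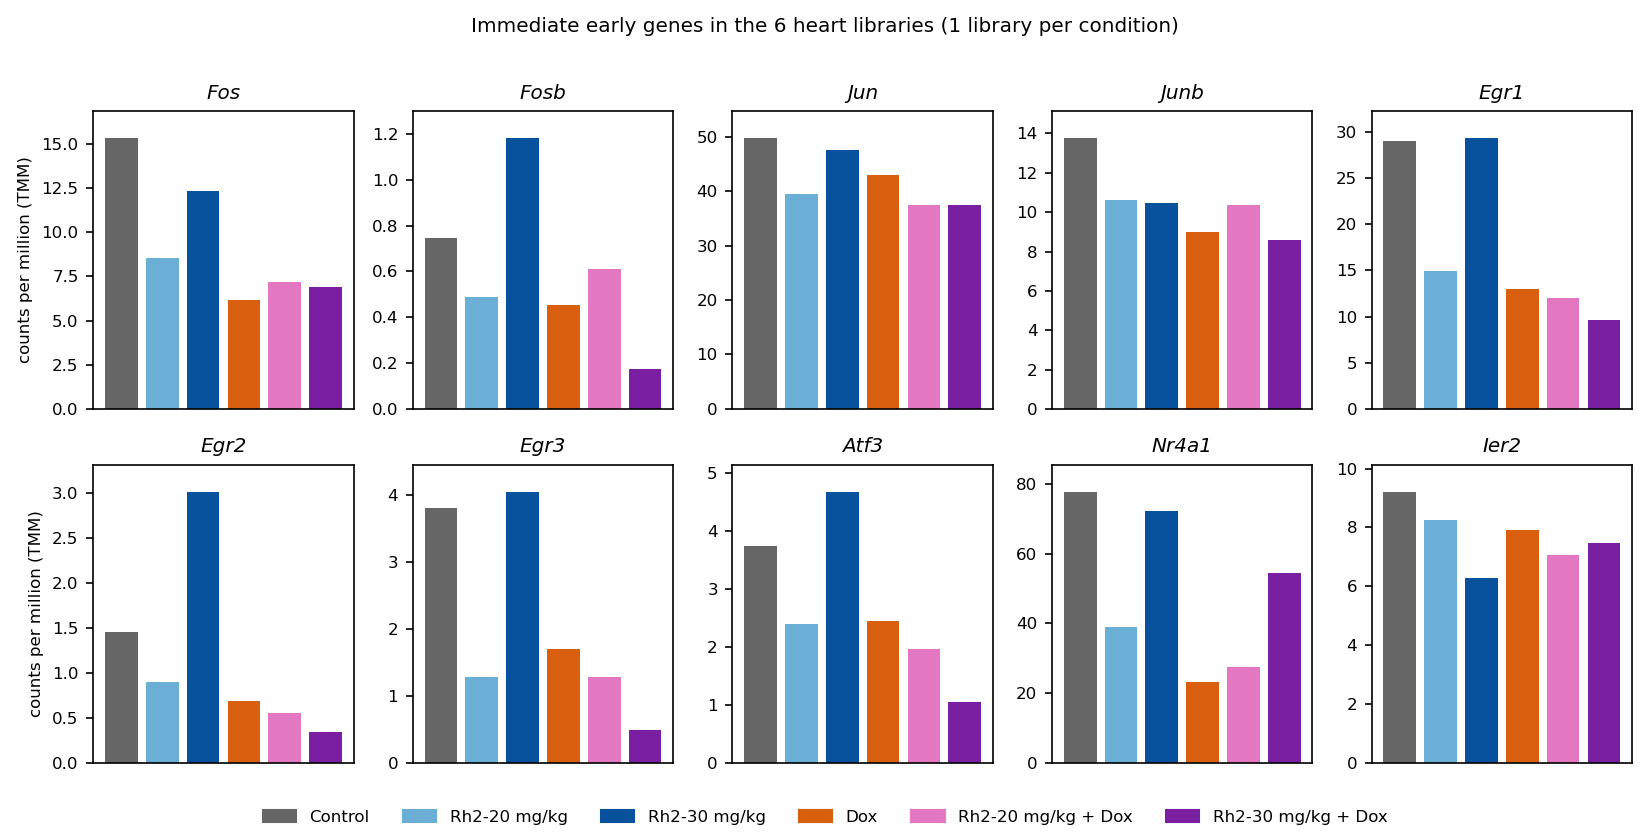
Bars give the TMM-scaled CPM of each of the 10 genes in the 6 libraries, 1 library per condition, on axes that start at 0 and differ between panels. Control is the highest bar in 5 genes and Rh2-30 mg/kg in the other 5, and Rh2-30 mg/kg + Dox is the lowest in 6.

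Control held the highest level of 5 of the genes (Fos, Jun, Junb, Nr4a1 and Ier2) and Rh2-30 mg/kg that of the other 5. Rh2-30 mg/kg + Dox held the lowest level of 6 genes, Dox alone that of 2 (Fos and Nr4a1), Rh2-20 mg/kg + Dox that of Jun and Rh2-30 mg/kg that of Ier2. Leaving out both libraries with Rh2 at 30 mg/kg, a choice made after the data were seen, gave 0 of the 10 genes at an adjusted p under 0.05 and 4 at an unadjusted p under 0.05, against 12.4% of tested genes at that level in either direction. The Dox libraries then lay below the others in 6 of 10 genes, against 22.3% of tested genes, and the median log2 fold change of the 10 was -0.62. In that fit Fos was at -0.83, Egr1 at -0.81, Junb at -0.33, Ier2 at -0.22 and Jun at -0.15. Leaving out Control lowered the count at an unadjusted p under 0.05 from 5 to 3, against 8.81% of tested genes.

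Each treated library was also set against Control, by the log2 ratio of TMM-scaled counts. With 1 library per condition these ratios have no replicate check and no p-value, and all 5 comparisons share the Control library. Each ratio carries a 95% interval that adds the dispersion between libraries to the counting error. In Dox, all 10 genes were below Control, where 50.5% of tested genes were, and 5 were at 2-fold or more lower (Fos, Egr1, Egr2, Egr3 and Nr4a1), against 3.58% of tested genes. When Rh2 at 20 mg/kg was added all 10 were again below Control, against 49.1% of tested genes, and Fos, Egr1, Egr2, Egr3 and Nr4a1 passed 2-fold, against 3.62%. With Rh2 at 30 mg/kg added all 10 were below, against 50.8%, and 6 passed 2-fold (Fos, Fosb, Egr1, Egr2, Egr3 and Atf3), against 6.85%. No gene of the 10 was 2-fold higher in these 3 libraries, where 5.43%, 5.13% and 4.08% of tested genes were.

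Nr4a1 had the lowest ratio in Dox, -1.74 (interval -2.42 to -1.07), followed by Fos at -1.31 (-2.0 to -0.62). Egr1 and Egr3 both stood at -1.16, with intervals of -1.84 to -0.47 and -1.90 to -0.43. In Rh2-30 mg/kg + Dox the order was different, with Egr3 lowest at -2.97 (-3.79 to -2.15), then Fosb at -2.07 (-3.13 to -1.01) and Egr2 at -2.05 (-2.94 to -1.17). Nr4a1 in that library was at -0.52 (-1.19 to 0.16). Fos, Egr1, Egr2 and Egr3 were at 2-fold or more below Control in all 3 Dox libraries, as were 1.12% of tested genes.

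Rh2 alone gave 2 unlike libraries. In Rh2-20 mg/kg all 10 genes were below Control, where 49.5% of tested genes were, with Egr3 alone past 2-fold at -1.56 (interval -2.30 to -0.82), against 2.8% of tested genes, and none was 2-fold higher, against 3.34%. Nr4a1 stood at -0.996 (-1.67 to -0.32), Egr1 at -0.95 (-1.64 to -0.27) and Fos at -0.84 (-1.53 to -0.16). In Rh2-30 mg/kg 5 genes were below and 5 above Control, where 46.3% of tested genes were below, and Egr2 alone passed 2-fold, at 1.05 above Control (0.31 to 1.79), against 8.48% of tested genes higher. Egr1 in that library was at 0.02 (-0.66 to 0.69) and Nr4a1 at -0.10 (-0.78 to 0.57). No gene of the 10 was 2-fold lower there, where 1.63% of tested genes were. Fos, Jun, Junb, Nr4a1 and Ier2 were below Control in all 5 treated libraries, against 17.1% of tested genes, although on library totals alone Jun and Nr4a1 stood 0.11 and 0.07 above Control in Rh2-30 mg/kg.

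**Figure D3:**
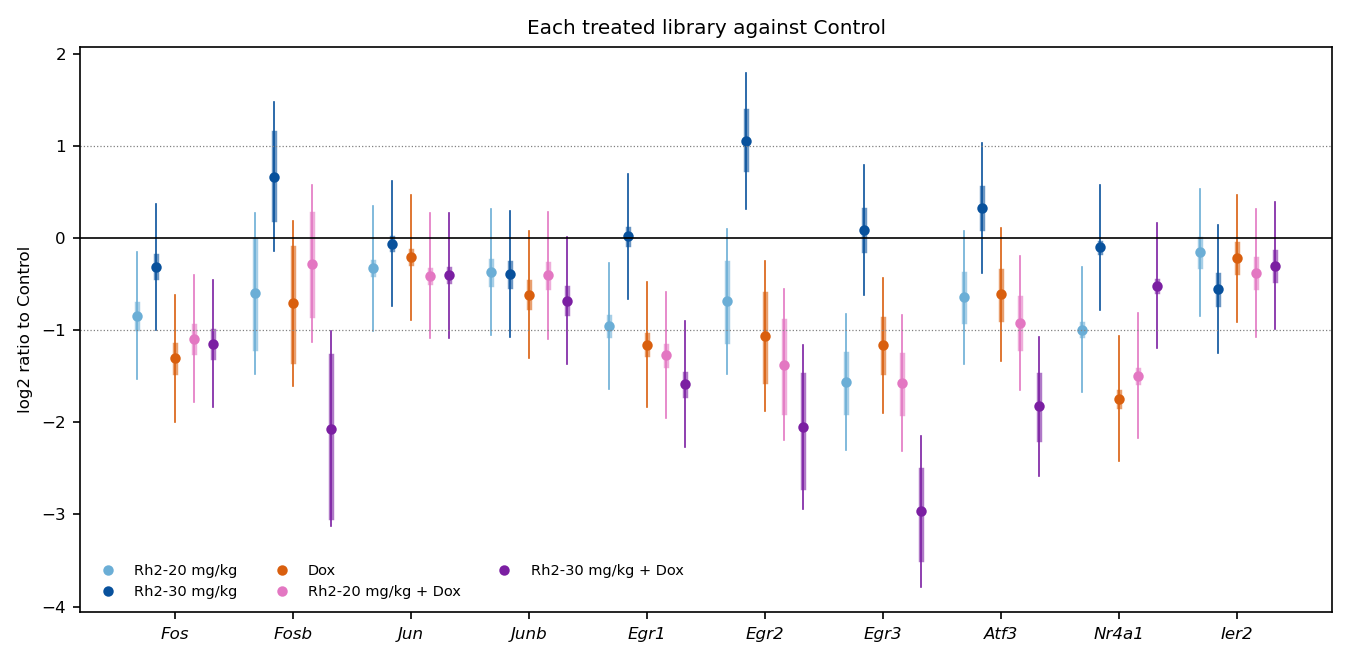
Log2 ratio of each treated library to Control for each of the 10 genes, with the 95% counting interval as a thick bar and the interval with the dispersion as a thin line, and dotted lines at 2-fold. Egr3 in Rh2-30 mg/kg + Dox lies lowest at -2.97 and Egr2 in Rh2-30 mg/kg lies highest at 1.05.

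Dox was then compared with no Dox at each Rh2 dose, in 3 comparisons that share no library. In 8 of the 10 genes (all but Fosb and Ier2) the Dox library was lower at all 3 doses, as in 17.6% of tested genes. The ratios were not of 1 size. Without Rh2, 5 genes were 2-fold or more lower, as given above. At Rh2 20 mg/kg none was 2-fold lower or higher, against 2.87% and 4.09% of tested genes, although 9 were lower at any size, against 49.7%, and the lowest ratios were -0.69 (interval -1.53 to 0.16) for Egr2 and -0.50 (-1.18 to 0.18) for Nr4a1. At Rh2 30 mg/kg 5 were 2-fold or more lower (Fosb, Egr1, Egr2, Egr3 and Atf3), against 12.2% of tested genes, and none was 2-fold higher, against 2.4%. At any size 9 of the 10 were lower there, all but Ier2, against 53% of tested genes.

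At 30 mg/kg Egr2 was 8.62-fold lower with Dox, a log2 ratio of -3.11 (interval -3.97 to -2.24), and Egr3 was 8.30-fold lower, at -3.05 (-3.87 to -2.24). Fosb was at -2.74 (-3.77 to -1.71), Atf3 at -2.15 (-2.90 to -1.40) and Egr1 at -1.60 (-2.28 to -0.92). These are the genes that were highest in Rh2-30 mg/kg and lowest in Rh2-30 mg/kg + Dox. Fos at that dose was at -0.84 (-1.53 to -0.15), Nr4a1 at -0.41 (-1.09 to 0.26), Jun at -0.34 (-1.02 to 0.34), Junb at -0.29 (-0.98 to 0.40) and Ier2 at 0.25 (-0.44 to 0.95). With the pair at 20 mg/kg, the intervals of Egr1, Egr2 and Atf3 covered 0 (Egr1 -0.32, from -1.0 to 0.37, and Atf3 -0.28, from -1.01 to 0.45). The ratio at 30 mg/kg minus that at 20 mg/kg was -3.06 for Fosb (interval -4.41 to -1.70), -3.04 for Egr3 (-4.16 to -1.92), -2.42 for Egr2 (-3.63 to -1.21), -1.87 for Atf3 (-2.92 to -0.82) and -1.28 for Egr1 (-2.25 to -0.32). For the other 5 genes that interval covered 0.

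**Figure D4:**
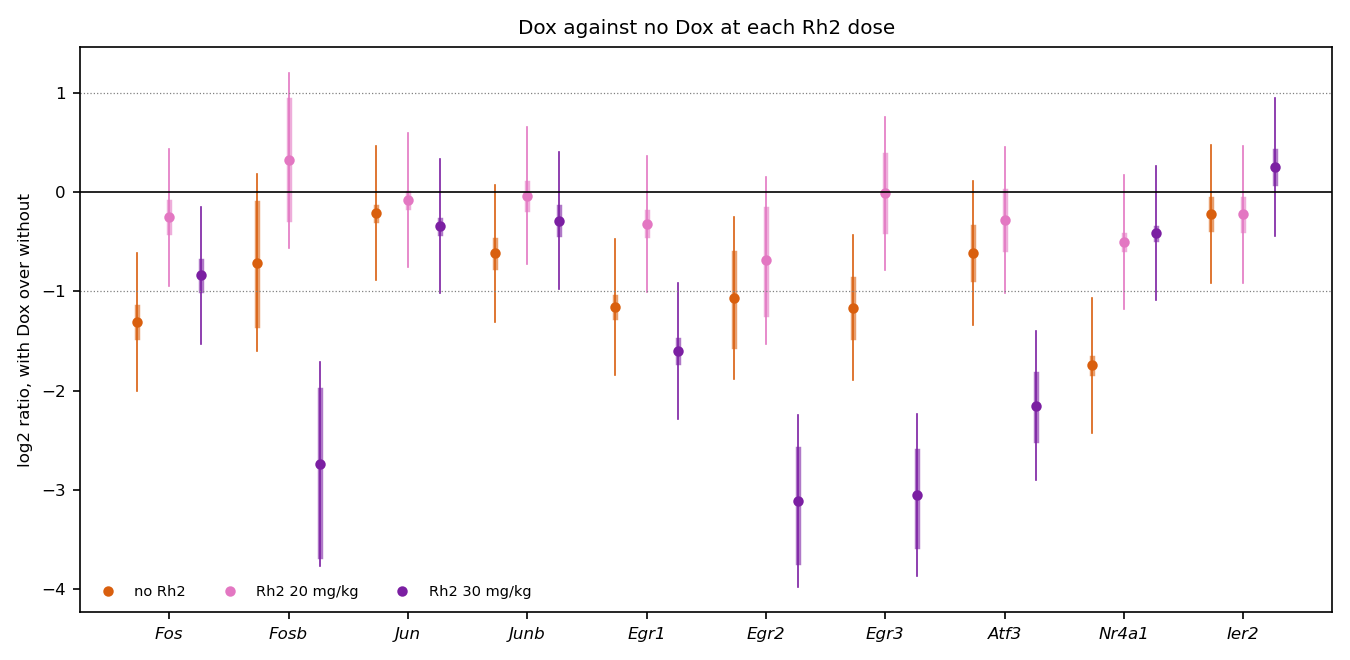
Log2 ratio of the library with Dox to the library without it at Rh2 doses of 0, 20 and 30 mg/kg for each of the 10 genes, with the counting interval as a thick bar and the interval with the dispersion as a thin line. Egr2 and Egr3 lie lowest, at -3.11 and -3.05 with Rh2 at 30 mg/kg, and no gene passes 2-fold at 20 mg/kg.

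Adding Rh2 to Dox was read from the 2 combined libraries against Dox alone, which both comparisons share. With Rh2 at 20 mg/kg none of the 10 genes passed 2-fold in either direction, where 3.44% of tested genes were lower and 3.08% higher. At any size 6 were lower, against 49.1%, and the ratios ran from -0.41 for Egr3 to 0.43 for Fosb. With Rh2 at 30 mg/kg Egr3 was lower at -1.80 (interval -2.64 to -0.97), Fosb at -1.36 (-2.45 to -0.26) and Atf3 at -1.22 (-1.98 to -0.45), against 7.35% of tested genes at 2-fold or more lower. At any size 8 of the 10 were lower, against 52.8%. Nr4a1 was 2.34-fold higher there, at 1.23 (0.55 to 1.91), against 2.76% of tested genes. Fos stood at 0.16 (-0.54 to 0.85).

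The 4 libraries with Rh2 were set against the 2 without, with Dox as a term in the fit. None of the 10 genes passed, at an adjusted p or at an unadjusted p under 0.05, where 0% and 8.74% of tested genes did. In none of the 10 did the 4 libraries lie all below or all above the other 2, as in 9.08% and 9.87% of tested genes. Over all tested genes edgeR's quasi-likelihood test called 0 at an adjusted p under 0.05 and 1602 at an unadjusted p under 0.05, and DESeq2's Wald test called 154 lower and 88 higher, none of them among the 10. The estimates for the 10 ran from -0.73 ± 0.56 for Egr3 (edgeR adjusted p = 0.698) to 0.12 ± 0.45 for Nr4a1 (edgeR adjusted p = 0.952). Without the Rh2-30 mg/kg library, Jun, Egr1 and Egr3 were at an unadjusted p under 0.05, against 7.99% of tested genes, and the lowest edgeR adjusted p of the 10 was 0.610.

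Over the 6 libraries most of the group varied together. Of the 45 pairs among the 10 genes, 42 had a Pearson r above 0, with a median of 0.71 and a range of -0.22 to 0.98, over log2 CPM in libraries that differ in treatment. Over the 4 libraries without Rh2 at 30 mg/kg the median was 0.87. The closest pair was Egr3 and Atf3 (0.98), and Egr1 had the highest r with the mean of the other 9 genes (0.98). Nr4a1 (0.57) and Ier2 (0.06) were least like the rest. The mean z-score of the 10 was 1.14 in Control, -0.08 and 0.79 with Rh2 alone at 20 and 30 mg/kg, -0.38 with Dox alone, and -0.49 and -0.98 with Dox plus Rh2 at those doses.

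Among 13952 other genes averaging 100 counts or more, those whose log2 CPM was most like that mean z-score over the 6 libraries included Ccdc39 and Hspa1l (r = 0.99 each), Lrmda (0.99) and Igsf3 (0.99). Hspa1l, an Hsp70 family gene, was at 14.7 CPM in Control, 10.2 and 13.2 with Rh2 alone at 20 and 30 mg/kg, 9.02 with Dox alone, and 8.49 and 8.02 with Dox plus Rh2 at those doses. Its libraries fell in the same order as those of the mean z-score. These genes were picked as the highest of many over 6 points, so their r is a description only.

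The rest of the pathway was read from lists of genes that act beside, above or below the group, and no gene on these lists passed the adjusted test in the Dox or the Rh2 comparison. Of the other EGR, NR4A and KLF factors, 6 were tested. At an unadjusted p under 0.05, 3 were lower (Nr4a3, Nr4a2 and Klf6), against 5.91% of all tested genes. Nr4a3, the close relative of Nr4a1, was at 26.8 CPM in Control and 12.3 and 14.9 with Rh2 alone at 20 and 30 mg/kg, against 4.09 with Dox alone and 4.32 and 3.18 with Dox plus Rh2 at 20 and 30 mg/kg. The sets were far apart, and its fitted log2 fold change of -2.22 ± 0.31 (edgeR adjusted p = 0.115) was lower than that of any of the 10. Nr4a2 was at -0.84 and Klf2 at -0.25, and Klf4, a factor of vessel lining, at 0.12 and Klf10 at -0.10 were highest of the list.

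Of the 30 further immediate early genes, 7 were lower and 1 was higher at an unadjusted p under 0.05, against 5.91% and 4.2% of all tested genes. The median log2 fold change was -0.24. The lowest were Ptgs2, the inducible cyclooxygenase, at -1.05 ± 0.37 (edgeR adjusted p = 0.417) and Sik1, a kinase that restrains CREB coactivators, at -0.99 ± 0.13 (edgeR adjusted p = 0.106). Sik1 was at 90.8 CPM in Control and 67.1 and 76.0 with Rh2 alone at 20 and 30 mg/kg, against 36.7 with Dox alone and 43.5 and 37.9 with Dox plus Rh2 at 20 and 30 mg/kg, and was 2-fold or more below Control in all 3 Dox libraries, as Nr4a3 was. The sets of Sik1 did not overlap. The highest of the list were Ier3 at 0.63 ± 0.16 (edgeR adjusted p = 0.314) and Phlda1 at 0.51 ± 0.23 (edgeR adjusted p = 0.521), so the list held genes on both sides.

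Feedback inhibitors switch the pathway off again, among them the dual-specificity phosphatases that inactivate MAP kinases. Of 14 tested, 12 had a fitted value below 0, as had 9676 of all 18328 tested genes. At an unadjusted p under 0.05, 4 were lower (Dusp1, Dusp6, Dusp8 and Spry4), against 5.91% of all tested genes. Dusp1 was at 74.7 CPM in Control and 75.5 and 79.3 with Rh2 alone at 20 and 30 mg/kg, against 44.6 with Dox alone and 40.3 and 47.3 with Dox plus Rh2 at 20 and 30 mg/kg. The 3 libraries without Dox were level and all above the others, with a fitted log2 fold change of -0.80 ± 0.09 (edgeR adjusted p = 0.083). Dusp2 had a lower estimate, -0.82 ± 0.70 (edgeR adjusted p = 0.743), at far lower counts, and Spry2 at 0.04 and Dusp10 at 0.03 were highest.

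Of the upstream regulators (serum response factor, its partners, CREB and the kinases above them) 29 were tested, with a median log2 fold change of 0.01. At an unadjusted p under 0.05, 3 were lower and 1 was higher, against 5.91% and 4.2% of all tested genes. Srf itself, which passed at the unadjusted level, was at -0.25 ± 0.09 (edgeR adjusted p = 0.435). The lowest were the kinases Map2k6 at -0.62 and Rps6ka1 at -0.40, and the highest were the CREB coactivators Crtc1 at 0.26 and Crtc3 at 0.24. Of the other AP-1 and bZIP factors 10 were tested, and 1 was lower at an unadjusted p under 0.05, against 5.91% of all tested genes. This was Fosl2, a member of the Fos family, at -0.65 ± 0.13 (edgeR adjusted p = 0.216). Batf followed at -0.63, and Maff at 0.09 and Jdp2 at -0.02 were highest, with a list median of -0.19.

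**Figure D5:**
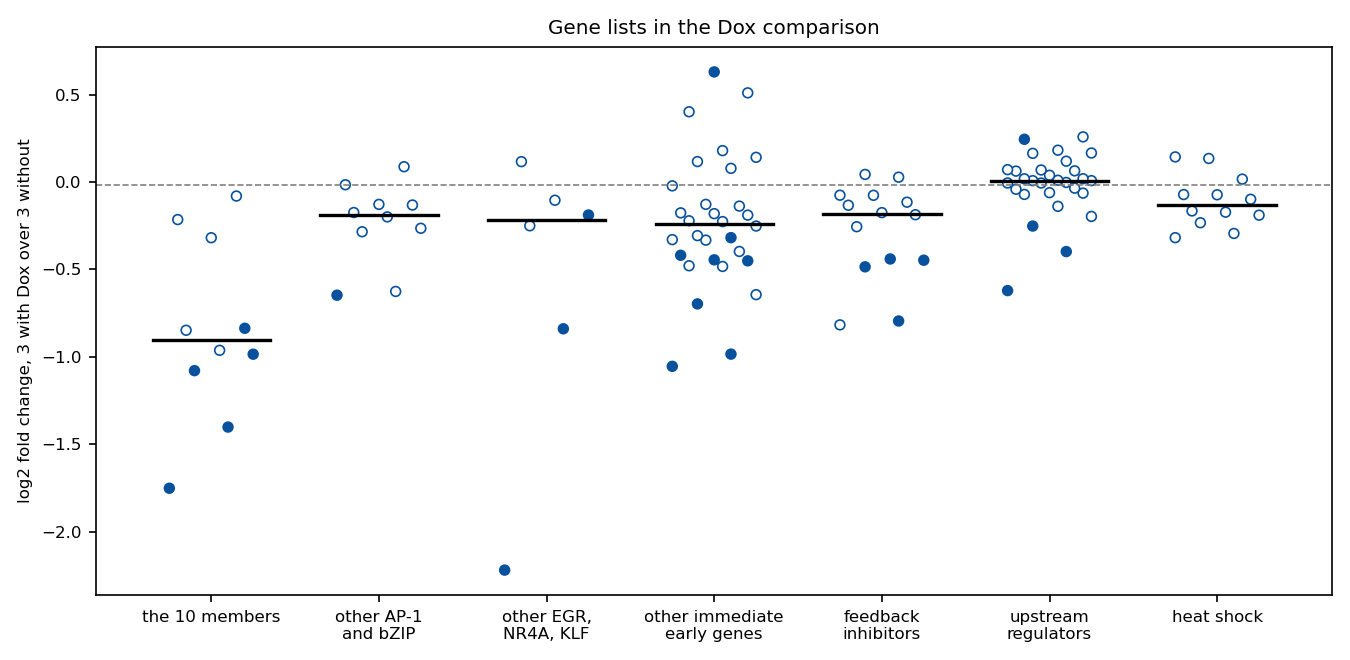
Fitted log2 fold change of each tested gene with Dox over without Dox (3 libraries against 3), by gene list, with filled points at an unadjusted p under 0.05, a black bar at each list's median and a dashed line at the median of all tested genes (-0.01). The median of the 10 genes lies at -0.91, and those of the 6 other lists drawn here lie between -0.24 and 0.01.

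Heat shock genes also respond to stress and handling of a tissue. Of 12 tested, 0 were at an unadjusted p under 0.05, where 5.91% of all tested genes were lower and 4.2% higher. The list median was -0.13. The lowest were Hspa1b at -0.32 ± 0.65 and Hspa1a at -0.30 ± 0.63, and the highest were Hspb1 at 0.14 and Bag3 at 0.13. Hspa1a, the inducible Hsp70 gene, was at 104 CPM in Control, 24.5 and 89.7 with Rh2 alone at 20 and 30 mg/kg, 101 with Dox alone, and 53.4 and 23.6 with Dox plus Rh2 at those doses. Dox and Control were nearly equal in Hspa1a, but other heat shock genes were higher with Dox alone than in Control, with Hsph1 at 117 against 51.9 CPM and Dnaja1 at 277 against 180 CPM. Control and Rh2-30 mg/kg were high and Rh2-30 mg/kg + Dox low in both Hspa1a and Fos. They parted in Dox alone, where Hspa1a was near its Control level and Fos, at 6.19 CPM, was at its lowest. The part of tissue handling was not tested. Hspa1a and Hspa1b are near-identical copies, so reads may have been shared between them.

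Glucocorticoid targets were read because stress hormones act on several of these genes. Of 10 tested, 2 were lower (Mt2 at -1.11 and Pdk4 at -1.10) and 2 higher (Zbtb16 at 0.58 and Fkbp5 at 1.09) at an unadjusted p under 0.05. Of all tested genes, 5.91% were lower and 4.2% higher at that level. Cdkn1a was at 0.61. Fkbp5, a receptor chaperone induced by glucocorticoids, was at 20.8 CPM in Control, 35.2 and 51.6 with Rh2 alone at 20 and 30 mg/kg, 51.6 with Dox alone, and 65.3 and 112 with Dox plus Rh2 at 20 and 30 mg/kg. It was 2-fold or more above Control in all 3 Dox libraries, yet equal in Dox and Rh2-30 mg/kg. Of 14 clock genes, 1 was lower (Dbp at -0.40) and 2 were higher (Cry1 at 0.37 and Per2 at 0.70) at an unadjusted p under 0.05, against the same shares. Npas2 was at 0.39 and Per1 at -0.18. The clock time at which hearts were taken was not given in the sources used here.

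Cell type markers followed the group to differing degrees, and their part in the result was not tested. The r of their summed level with the mean z-score of the group ran from -0.63 for neutrophil to 0.60 for lung markers. It was 0.56 for macrophage, 0.34 for endothelial, 0.20 for fibroblast and -0.49 for brown fat markers. Control had the highest mean z-score, but the lowest macrophage and fibroblast sums of the libraries without Dox, at 376 and 1596 CPM. All 7 macrophage markers had a fitted value below 0 with Dox, as had 9676 of all 18328 tested genes. Adgre1 was at an unadjusted p under 0.05 (-0.65) and C1qb was lowest at -0.66, with Cd68 among those that did not pass. Their summed level was 256 to 448 CPM with Dox and 376 to 569 CPM without, highest in Rh2-30 mg/kg and lowest in Rh2-30 mg/kg + Dox, and none of the 7 was at 0. The 7 fibroblast markers summed to 1572 to 2099 CPM with Dox and 1596 to 2512 CPM without, with the same libraries at the ends and none at 0, and Col1a1 alone at an unadjusted p under 0.05 (-0.82). The 6 endothelial markers summed to 1496 to 1726 CPM with Dox and 1547 to 1767 CPM without, with Cdh5 at -0.24.

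The 6 brown fat markers summed to 418 to 549 CPM with Dox and 331 to 490 CPM without, with Ucp1 and Elovl3 at 0 in both Control and Dox. Most of each sum was Ppargc1a, at 225 to 449 CPM, and Cox7a1, at 83.8 to 114 CPM. The fitted values of Ucp1 and Elovl3 were below 0 at an unadjusted p under 0.05, but both rested on the Rh2-30 mg/kg library. Elovl3 was at 4.78 CPM there and at most 0.0333 CPM elsewhere. Ppargc1a was higher (0.61) with Dox at an unadjusted p under 0.05. The 6 white fat markers summed to 692 to 738 CPM with Dox and 709 to 852 CPM without, nearly all of it Fabp4, which ran from 676 to 778 CPM. The others differed widely between libraries. Against Control, 4 of the 5 tested were 2-fold or more higher in every treated library except Rh2-30 mg/kg + Dox, where 4 were 2-fold or more lower. The shares of tested genes higher were 5.43% with Dox alone and 3.34% and 8.48% with Rh2 alone at 20 and 30 mg/kg. In Rh2-20 mg/kg + Dox that share was 5.13%, and in Rh2-30 mg/kg + Dox 6.85% of tested genes were lower. Between Control and Dox, Adipoq was at 0.672 and 7.73 CPM, Plin1 at 0.120 and 2.76 CPM and Cidec at 0.480 and 3.53 CPM. With Rh2 at 20 mg/kg, Adipoq was at 3.66 CPM without Dox and 3.46 CPM with Dox. The 6 blood markers (haemoglobin and red cell genes) summed to 1659 to 10548 CPM with Dox and 2614 to 3621 CPM without, lowest in Rh2-30 mg/kg + Dox and highest in Dox. The neutrophil markers summed to 17.6 to 44.0 CPM with Dox and 15.7 to 29.6 CPM without, with Ly6g at 0 in Control and Dox, Retnlg at 1.38 and Cxcr2 at 1.08 on the log2 scale, and Cxcr2 was 2-fold or more above Control in all 3 Dox libraries. Smooth muscle markers summed to 569 to 943 CPM with Dox and 640 to 849 CPM without, and skeletal muscle markers to 612 to 753 CPM and 605 to 875 CPM. Nearly all of the skeletal muscle sum was Acta1, at 294 to 514 CPM, and Ckm, at 297 to 433 CPM. All 10 cardiomyocyte markers had a fitted value above 0, as had 8652 of all 18328 tested genes. They ran from Ryr2 at 0.03 to Actc1 at 0.37, and only Actc1 was at an unadjusted p under 0.05. Single pairs differed in direction. With Dox, 7 of the 10 were lower without Rh2 and 8 at Rh2 20 mg/kg, against 50.5% and 49.7% of tested genes. At 30 mg/kg all 10 were higher with Dox, where 53% of tested genes were lower.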

How the data were processed

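RNA from pooled hearts was captured with a SureSelect kit and sequenced, with 1 library per condition. The authors trimmed the reads, aligned them to mm10 with HISAT2 2.1.0 and estimated abundance with StringTie 2.1.3b, per the labels' processing notes and the study's methods. The authors deposited a raw read count per gene, an FPKM value (scaled by transcript length and library size) and a TPM value (scaled to 1 total per library, not used here). How reads shared by near-identical genes were split was not given in the sources used here.

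Tests on the counts used edgeR 4.0.16 (R 4.3.3). Genes averaging 10 counts or more were kept and TMM factors applied, and the quasi-likelihood test was two-sided, with Benjamini-Hochberg adjustment over all tested genes. The 3 libraries with Dox were compared with the 3 without, and the 4 with Rh2 with the 2 without, with Dox as a term. Residual spread in these fits includes differences between Rh2 doses. An exact permutation of 3 against 3 cannot go below p = 0.1. Log2 ratios of single libraries used a prior count of 0.5, with an exact conditional binomial interval for counting error and a wider one that adds 1 common dispersion of 0.0285, estimated robustly with all libraries as 1 group, which gives at least 0.67 to either side on the log2 scale. The genes and lists were chosen with earlier results of these data known. Named outside the 10 are the 2 highest and 2 lowest genes of each list in the Dox fit, those 2-fold from Control in all 3 Dox libraries and the 5 most like the group, of which 1 is not reported here; any further gene was picked with its values in view. Alternatives were DESeq2 1.42.0 (size factors and Wald test), limma 3.58.1 on log2(FPKM + 0.1) or log2(FPKM + 1), no filter, library totals, a prior count of 2, Rh2 dose as a term or number, and each library left out. Positions and promoters came from RefSeq GRCm38.p6 and exons from GENCODE. The steps were tested on simulated data. Plots came from matplotlib 3.10.9 (Python 3.11.15).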

Additional observations from a re-analysis of the deposited data

Results flagged for a closer look

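In 15 of 50 pairs of effects compared, the log2 ratio of a gene had opposite signs in the 2 settings, and in 9 of these both counting intervals lay clear of 0. The 50 are not independent, because all use the same 6 libraries. Comparing an Rh2 effect without and with Dox gives the same difference as comparing the Dox effect without and with that Rh2 dose. The share of opposite signs over all tested genes is not given here. Each effect rests on 1 library against 1, so these differences were not tested with replicates, and for each an interval that adds the dispersion is given for the difference. It left out 0 in 6 of the 9, and in 2 of the 9 (Fosb and Egr2, Rh2 at 30 mg/kg) with the larger dispersion estimate of 0.0865.

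For Rh2 at 30 mg/kg, 3 of the 9 were higher than the reference without Dox and lower with Dox. The log2 ratio was 0.66 without and -1.36 with Dox for Fosb (difference -2.02, interval -3.38 to -0.66), 1.05 and -0.99 for Egr2 (-2.04, -3.23 to -0.85), and 0.32 and -1.22 for Atf3 (-1.54, -2.58 to -0.50). Nr4a1 had the opposite signs, at -0.10 without and 1.23 with Dox (difference 1.33, interval 0.37 to 2.29). Among pairs where a counting interval covered 0, Egr3 was at 0.09 without and -1.80 with Dox (difference -1.89, interval -2.99 to -0.79), Egr1 at 0.02 and -0.43 and Fos at -0.31 and 0.16.

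For Rh2 at 20 mg/kg, levels were lower without Dox and slightly higher with it for Fos, -0.84 and 0.21 (difference 1.06, interval 0.08 to 2.03), for Nr4a1, -0.996 and 0.25 (1.24, 0.28 to 2.20), and for Junb, -0.37 and 0.21 (0.58, -0.39 to 1.55). Fosb, where a counting interval covered 0, was at -0.60 and 0.43 (1.03, -0.22 to 2.29).

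Ier2 was lower with Dox at Rh2 doses of 0 and 20 mg/kg, at -0.22 in each, and higher at 30 mg/kg, at 0.25, with differences of 0.47 (interval -0.51 to 1.45) and 0.48 (-0.50 to 1.46). Fosb was higher with Dox at 20 mg/kg, at 0.32, where a counting interval covered 0, and lower at 0 and 30 mg/kg, at -0.71 and -2.74.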

How the results depend on the processing

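Pairing by replicate was not possible because each condition has 1 library and the labels give no replicate numbers to block on. Dox and no Dox can be matched by Rh2 dose instead: with dose as a term, 0 of the 10 genes passed the adjusted threshold and 4 were at an unadjusted p under 0.05, against 8.72% of tested genes. In the Dox fit, the count of the 10 genes past the adjusted threshold was 0 in every alternative except DESeq2's Wald test, which called 3. Over 130 estimates of the 10 genes under alternatives, 126 kept their direction and their side of the threshold, those 3 passed it, and Ier2 turned to 0.043 without Control (range -0.21 to 0.043 leaving out 1 library), with adjusted p-values from 0.0045 up. Over all genes, leaving out 1 library gave 0 to 14 calls, 14 without Rh2-30 mg/kg + Dox and 3 without Rh2-30 mg/kg, and leaving out both libraries with Rh2 at 30 mg/kg, added after the data were seen, gave 126 (DESeq2's Wald test on all libraries gave 279 lower and 146 higher). With Rh2 dose as a term or with log2(FPKM + 1) it was 0, and 0 of the 10 genes were called in each of these.

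In the Rh2 fit, 107 of 120 estimates of the 10 genes kept their direction and 13 turned, none past the threshold: Fosb to 0.011 and Egr2 to 0.036 with log2(FPKM + 1), Fos to 0.19 and Junb to 0.080 without Control, Fosb to 0.17 and Egr2 to 0.09 without Rh2-20 mg/kg, Fosb to 0.28, Egr2 to 0.12 and Nr4a1 to -0.18 without Rh2-30 mg/kg + Dox, Fosb to 0.17, Egr2 to 0.43 and Nr4a1 to -0.48 without Dox, and Egr2 to 0.031 with dose as a number. Leaving out 1 library gave -0.55 to 0.19 for Fos, -0.48 to 0.28 for Fosb, -0.38 to 0.080 for Junb, -0.64 to 0.43 for Egr2 and -0.48 to 0.82 for Nr4a1.

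Counts of the 10 genes at 2-fold were smaller with FPKM, whose pseudocount shrinks the ratios of low genes: against Control, log2(FPKM + 0.1) gave 3 lower with Dox alone and 3 with Rh2 at 20 mg/kg added, and log2(FPKM + 1) gave 1 with Dox alone, 1 with either Rh2 dose added, 0 lower with Rh2 alone at 20 mg/kg and 0 higher at 30 mg/kg. The 30 mg/kg combination then had 0 lower against Dox and 2 against Rh2 alone. DESeq2's size factors gave 2 lower for Rh2 alone at 20 mg/kg against Control. The shares of all tested genes at 2-fold under these settings are not given here. Whether the counts of the group fell more than those of other genes can therefore not be read from them. Library totals moved ratios by up to 0.17. A dispersion estimated without robust weights, 0.0865, would widen every interval of a ratio to at least 1.18 to either side, and leave 2 of the 9 differences between effects given above clear of 0 in place of 6. With 15 to 112 counts in Fosb and 30 to 286 in Egr2, counting error limits those ratios most.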
